A study of Mus musculus with 8 samples.

Results

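Sox7, Sox17 and Sox18 are the 3 members of the SoxF group of transcription factors, and their messenger RNA was followed in the aorta of mice with and without a smooth muscle deletion of Srf. They are 3 of 18193 genes that the platform annotation names, with 5 of the 45037 probe sets in the table (2 for Sox7, 2 for Sox17 and 1 for Sox18). A probe set is a group of short array probes read together as 1 value. All 5 passed the filter on dim probe sets, which kept 27023. The genes were chosen by measured values: an earlier look at these same arrays had Sox18 among the genes with the smallest p between mutant and control. That contrast is therefore described for the SoxF genes, with no test.

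Serum response factor (SRF, gene Srf) is a transcription factor of muscle and cytoskeleton genes. The mutants carried SRF-flex2neo together with SM22CreERT2ki/+, a tamoxifen-activated Cre recombinase placed in 1 allele of Tagln, the smooth muscle gene of SM22, so that deletion is directed to smooth muscle and not to endothelial cells. The controls were SRF-flex2neo littermates, described without the Cre, so Srf deletion, the Cre and the loss of a Tagln allele cannot be told apart. Mice of both groups were 4 months old, received tamoxifen (1 mg, for 3 days) and were killed 8 days after injection. There were 4 mutant and 4 control arrays, each from 2 ug of aorta RNA. Array titles number 2 sets without saying what a set stands for. Set 1 holds mutants 1 and 2 and controls 1 and 2, and set 2 holds mutants 3 and 4 and controls 3 and 4. The labels do not tie arrays to separate mice, so p-values reflect only how these arrays vary, and that variation could be technical.

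SoxF proteins bind DNA through an HMG box, which fits the minor groove and bends the helix. In the mouse they are found mainly in endothelial cells, the inner lining of vessels, where they act downstream of VEGF signalling, work with Notch in arterial identity and can stand in for each other in part. Sox18 also switches on Prox1 at the start of lymphatic development, and its dominant mutations cause the ragged phenotype in mice. Sox17 is known for arterial endothelium, and Sox7 for early blood and vessel development.

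Some facts of the whole series touch every value below. The deposited values are on a log2 scale from 0.9 to 15.82, so a difference of 1 is a 2-fold change, and array medians lay between 3.72 and 3.98. Mutant 2 stood apart: over the probe sets kept it correlated with the other 7 arrays at 0.926 to 0.952, while for those 7 the values were 0.985 to 0.994 inside 1 set and 0.965 to 0.975 across sets. The targeted gene, Srf, was at 10.21, 9.54, 10.32 and 10.34 in mutants 1 to 4 and at 10.52, 10.20, 10.15 and 10.34 in controls 1 to 4 in its brighter probe set, and the groups overlapped. The place of its probe sets relative to the deleted part is not given, so they do not check the deletion. The smooth muscle markers Acta2, Myh11 and Tagln were among the brightest in the table. Acta2 averaged 15.36 in mutants and 15.37 in controls. Myh11 (14.49 in mutants, 14.69 in controls) and Tagln (15.03 in mutants, 15.32 in controls) were lower in mutants. Endothelial markers such as Vwf (11.48 in mutants, 10.52 in controls) and Pecam1 (10.58 in mutants, 9.89 in controls) were measured too, so the tissue held the cells in which SoxF genes are known.

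Sox18, read by probe set 1449135_at, was higher in the mutant aorta. It was at 8.95 and 9.45 in mutants 1 and 2 and at 8.14 and 8.06 in mutants 3 and 4. In the controls it was at 7.54 and 7.76 (controls 1 and 2) and at 7.17 and 7.12 (controls 3 and 4). Every mutant array lay above every control array, which held for 1.43% of all probe sets tested, in this direction. The means were 8.65 ± 0.67 in mutants and 7.40 ± 0.31 in controls (log2 value, SD, n = 4 each), a difference of 1.25 (SE 0.17), or 2.38-fold. In whole tissue, more cells of a type and more RNA per cell cannot be told apart. Arrays of the same genotype and set differed by 0.05 to 0.50.

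Sox17 has 2 probe sets, and the difference between genotypes was similar in both. In the brighter, 1429177_x_at, mutants 1 to 4 were at 7.44, 8.47, 7.48 and 7.69 and controls 1 to 4 at 6.33, 7.03, 6.86 and 6.82. The groups did not overlap, although the gap of 0.41 between the lowest mutant and the highest control was smaller than the range within either group. The means were 7.77 ± 0.48 in mutants and 6.76 ± 0.30 in controls (SD, n = 4 each), a difference of 1.01 (SE 0.27), or 2.01-fold. In the dimmer, 1421657_a_at, mutants 1 to 4 were at 6.18, 7.07, 5.29 and 5.68 and controls 1 to 4 at 5.16, 5.68, 4.99 and 4.66. Here the groups overlapped, mutant 3 lying below control 2 and mutant 4 level with it, and the difference was 0.93 (SE 0.26).

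Sox7 was higher in mutants in 1 of its 2 probe sets and flat in the other. In 1416564_at, mutants 1 to 4 were at 6.17, 6.83, 4.74 and 5.16 and controls 1 to 4 at 4.78, 4.98, 4.44 and 4.19. Mutant 3 lay below controls 1 and 2, so the groups overlapped across sets. The means were 5.73 ± 0.95 in mutants and 4.60 ± 0.35 in controls (SD, n = 4 each), a difference of 1.13 (SE 0.26), or 2.18-fold, and the mutant range of 2.09 was the widest among the SoxF probe sets. In 1432495_at all 8 arrays lay between 3.09 and 3.15, with a difference of -0.0025 (SE 0.04). Its mean lay above 42.8% of the table, against 58.0% for 1416564_at.

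**Figure D1:**
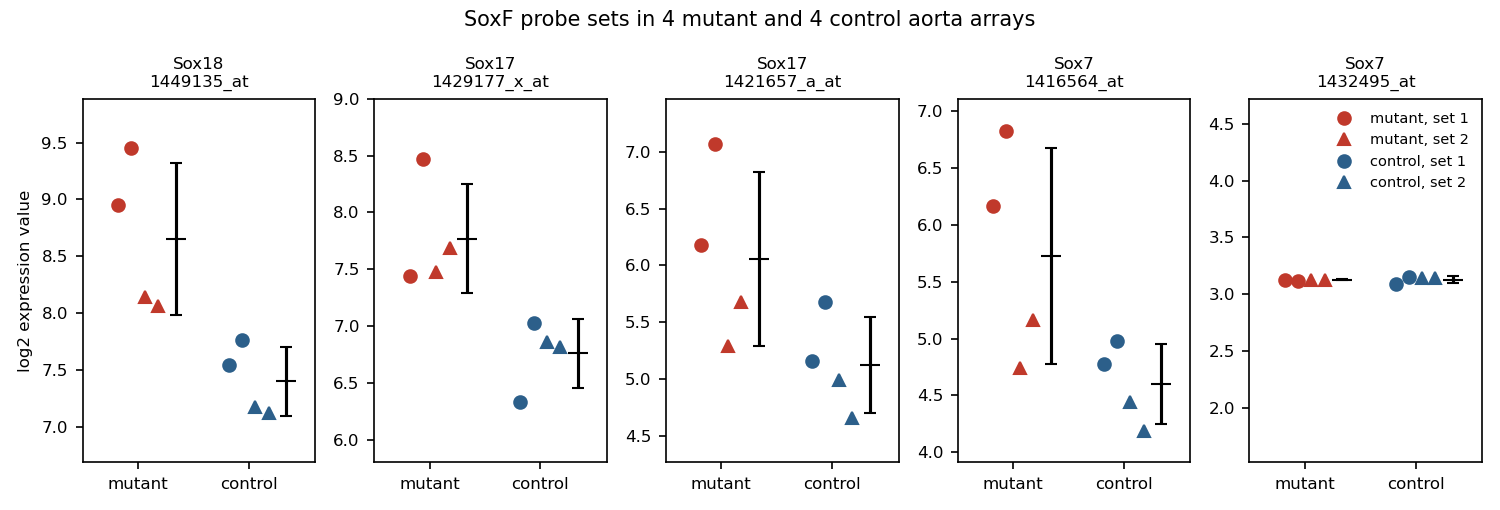
Each panel plots the log2 value of 1 SoxF probe set in every array, with mutants left and controls right, circles for set 1 and triangles for set 2; the bar to the right of each group is its mean with SD (n = 4), and each panel spans the same number of log2 units around its own centre. Sox18 and the 1429177_x_at probe set of Sox17 separate the groups, 1421657_a_at and 1416564_at overlap through set 2 mutants and set 1 controls, and 1432495_at stays between 3.09 and 3.15.

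Within each set, which holds 2 arrays per genotype, the direction was the same. Sox18 was higher in mutants by 0.96 in set 2 and 1.55 in set 1, and Sox7 (1416564_at) by 0.64 in set 2 and 1.62 in set 1. Sox17 differed by 0.75 in set 2 and 1.28 in set 1 in 1429177_x_at, and by 0.66 in set 2 and 1.21 in set 1 in 1421657_a_at. In these 4 probe sets both mutants lay above both controls in each set, as did 4.11% of all probe sets tested. The difference between the sets in these sizes was not tested. Mutant 2 had the highest value of the 8 arrays in all 4, and without it the differences were 1.09 for Sox18, 0.90 for Sox7, 0.75 for Sox17 in 1429177_x_at and 0.70 in 1421657_a_at.

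**Figure D2:**
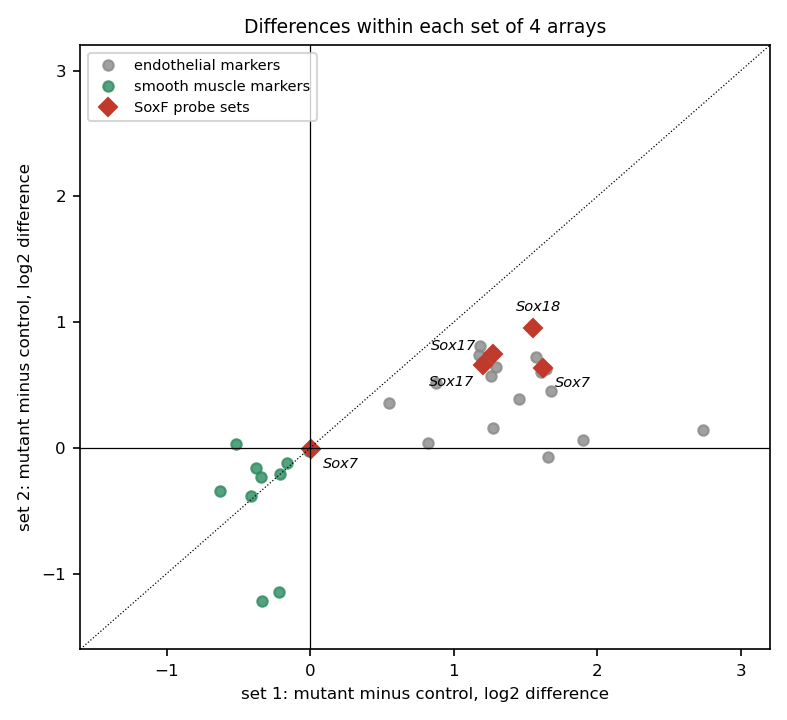
The log2 difference between mutant and control in set 1 (x axis) is set against that in set 2 (y axis) for the 5 SoxF probe sets (red diamonds), 18 endothelial markers (grey) and 10 smooth muscle markers (green); each difference is of 2 arrays minus 2 arrays, and the dotted line marks equal differences. The 4 SoxF probe sets that differ lie below the line, and the fifth lies at the crossing of the axes. Sox18 is at 0.96 in set 2 and at 1.55 in set 1. The highest of the 18 endothelial markers is Ptprb in set 2 (0.81) and Emcn in set 1 (2.74).

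Sox18 and 1 of the 2 Sox7 probe sets also differed between the sets of arrays. The other Sox7 probe set, 1432495_at, did not pass (0.0125, SE 0.04, limma adjusted p = 0.847). The contrast between sets did not choose the genes, although its test takes the residual spread of the same fit. A small p in that fit helped to choose Sox18. Sox18 averaged 7.62 ± 0.55 in set 2 and 8.43 ± 0.92 in set 1 (SD, n = 4 each, both genotypes), a difference of -0.80 (SE 0.17, limma adjusted p = 0.0167). Sox7 (1416564_at) averaged 4.63 ± 0.42 in set 2 and 5.69 ± 0.98 in set 1, a difference of -1.06 (SE 0.26, limma adjusted p = 0.0298). Both fell in set 2, as did 10.6% of all probe sets tested, while 10.9% rose in set 2. The fall of Sox18 was -0.51 in control arrays and -1.10 in mutant arrays, and that of Sox7 -0.57 in control arrays and -1.55 in mutant arrays. Neither passed in 1 genotype alone, with 2 arrays against 2. Sox18 lost the call without mutant 3 (adjusted p = 0.0547) or mutant 4 (adjusted p = 0.052), and Sox7 without control 2 or 4 or mutant 1, 3 or 4 (limma adjusted p 0.0612 to 0.0789) and with no filter on dim probe sets (adjusted p = 0.051).

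The 2 probe sets of Sox17 did not move alike between sets. In 1421657_a_at the mean was 5.16 in set 2 and 6.02 in set 1, a difference of -0.87 (SE 0.26) that missed the threshold (limma adjusted p = 0.053). In 1429177_x_at it was 7.21 in set 2 and 7.32 in set 1, a difference of -0.11 (SE 0.27, adjusted p = 0.793). The value of 1429177_x_at minus that of 1421657_a_at in the same array lay between 1.87 and 2.19 in set 2 and between 1.17 and 1.40 in set 1. These ranges did not overlap, and an exact two-sided permutation test of 4 against 4 arrays gave p = 0.0286, the smallest it can give. This comparison was chosen after the values were seen. Between genotypes the same quantity averaged 1.72 in mutants and 1.64 in controls. The letters in the probe set names mark designs of the manufacturer: x is used where some probes can match other transcripts, and a where probes match several transcripts of 1 gene.

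**Figure D3:**
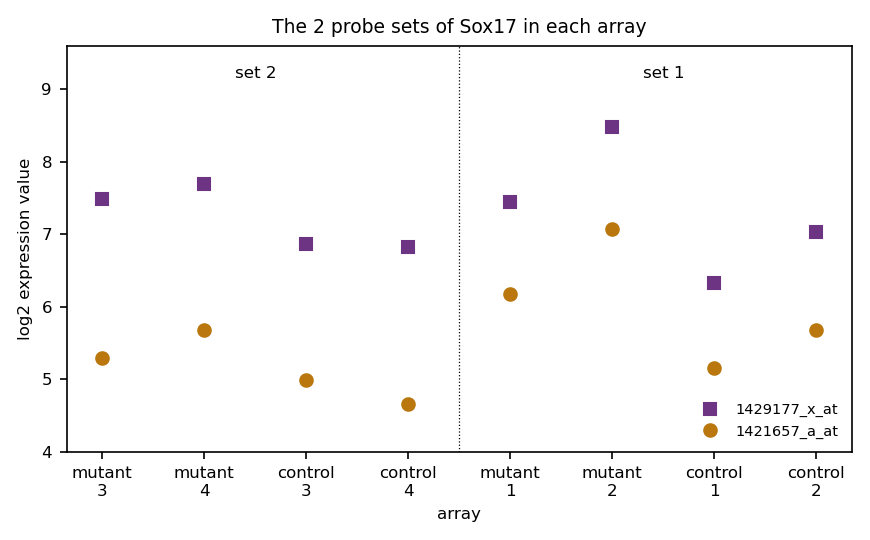
The log2 value of each Sox17 probe set (squares 1429177_x_at, circles 1421657_a_at) is plotted for every array, set 2 left of the dotted line and set 1 right of it, mutants before controls in each. The distance between squares and circles is 1.87 to 2.19 in set 2 and 1.17 to 1.40 in set 1, and mutants lie above controls of their set in both.

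The rest of the Sox family is set beside the SoxF values, although several of its genes were dim. Of 16 other Sox genes looked for, 10 passed the filter and Sox1, Sox2, Sox3, Sox8, Sox14 and Sox30 were below it. No gene of any group passed between mutant and control: at a limma adjusted p under 0.05, 0% of the 27023 probe sets were called, while 4.50% were higher in mutants and 5.05% lower at an unadjusted p under 0.05. The median difference of the 10 was 0.08, beside -0.02 over all 12173 genes tested, and 1 of them, Sox13, had an unadjusted p under 0.05. Sox13 lost this without control 1, control 2 or mutant 4, with no set term, and in set 1 or set 2 alone. Sox13, a SoxD gene, averaged 7.20 ± 0.31 in mutants and 6.83 ± 0.10 in controls, a difference of 0.37 (SE 0.13, limma adjusted p = 0.479). Sox4, a SoxC gene that many cell types express, averaged 9.64 in mutants and 9.57 in controls, a difference of 0.07 (SE 0.12).

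The remaining 8 lay between -0.18 (Sox12, SoxC) and 0.35 (Sox10). Sox10, which marks Schwann cells, differed by 0.35 (SE 0.30), with mutant 2 at 5.20 and the next mutant at 3.81. Sox9, known from cartilage, differed by 0.12, Sox15 by 0.10, Sox5 by 0.14, Sox6 by 0.02, Sox11 by 0.01 and Sox21 by -0.04. Sox11, Sox15 and Sox21 were dim, at 3.06, 3.48 and 3.54 in mutants and 3.05, 3.38 and 3.58 in controls. The lowest mean that the filter kept was 2.97, so differences near 0 in these genes tell little. With the lowest 60% of probe sets left out, the median of the other Sox genes was 0.105. Between sets, Sox4 fell in set 2 (-0.72, SE 0.12, limma adjusted p = 0.00747) and Sox5 rose in set 2 (0.88, SE 0.14, limma adjusted p = 0.00732).

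Inputs and partners of the SoxF factors were mostly higher in mutants, none passing the adjusted threshold. Of 18 genes, 17 were tested (Etv2 was below the filter), 12 were higher, the median was 0.37, and 3 had an unadjusted p under 0.05, all higher. These were Nrp1, a VEGF co-receptor (0.84, SE 0.22), Vegfc, the ligand of lymphatic growth (0.66, SE 0.18), and the Wnt receptor Fzd4 (0.48, SE 0.18). The ETS factor Fli1 differed by 0.77 (SE 0.34). The ETS factor Erg, also endothelial, was lower, at 9.12 ± 0.33 in mutants and 9.40 ± 0.54 in controls (difference -0.28, SE 0.14), and Mef2c, a partner of Sox18 in the mouse, differed by -0.10 (SE 0.17). Without mutant 2 the median of this list was 0.12, and in set 2 alone it was 0.05, with 1 gene at an unadjusted p under 0.05. In set 1 alone there were 2 such genes. Without control 3 or mutant 4 there were 5 such genes.

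Genes reported as SoxF targets in vessels were higher in 14 of the 16 tested, with a median of 0.73, and 9 had an unadjusted p under 0.05, all higher; 0 passed the adjusted threshold. Mmp7, Gata4 and Lef1 were below the filter. The angiopoietin receptor Tek averaged 9.08 ± 0.81 in mutants and 7.94 ± 0.39 in controls, a difference of 1.15 (SE 0.22, limma adjusted p = 0.375). The related receptor Tie1 differed by 0.92 (SE 0.21), the tight junction gene Cldn5 by 0.92 (SE 0.25), and the adhesion molecule Vcam1, a target of Sox18 in the mouse, by 0.75 (SE 0.16). The Notch receptor genes Notch4 and Notch1 differed by 1.01 (SE 0.34) and 0.80 (SE 0.27). Prox1, the lymphatic target of Sox18, was at 3.08 in mutants and 3.05 in controls, and its mean lay close to the lowest that the filter kept, 2.97. The arterial ligand Efnb2 differed by -0.04 (SE 0.17) and the venous receptor Ephb4 by -0.16 (SE 0.13).

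These targets overlap with general endothelial markers. Of the 19, 6 are also in the endothelial list, and among the 10 tested that are not, 8 were higher with a median of 0.46, and 5 had an unadjusted p under 0.05. Without mutant 2 the median of the whole target list was 0.34, with 13 of 16 higher. Within sets it was 0.35 for set 2 and 1.11 for set 1. With control 1 left out, or with no set term, 4 genes of the list had an unadjusted p under 0.05.

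Endothelial markers moved with the SoxF genes, and their part in the SoxF differences was not tested. All 18 were tested and all 18 were higher in mutants, with differences from 0.43 to 1.44 and a median of 0.96. At an unadjusted p under 0.05 there were 13, against 5 with no set term, and 0 passed the adjusted threshold. There were 8 in set 2 alone and 15 in set 1 alone. Of all 12173 genes tested, 706 were higher in mutants at an unadjusted p under 0.05. Within sets the 18 had medians of 0.54 (set 2) and 1.29 (set 1). Ptprb, an endothelial phosphatase, differed by 1.00 (SE 0.13), Mmrn2, a matrix protein of endothelial cells, by 0.96 (SE 0.13), and Ecscr, an endothelial membrane protein, by 0.97 (SE 0.17). The difference of Sox18 was exceeded by 1 of the 18, Emcn (1.44, SE 0.72), that of Sox7 by 3 and that of Sox17 by 5. Per array, the mean of the list relative to its average over the 8 arrays was 0.76, 1.55, -0.28 and -0.19 in mutants 1 to 4 and -0.39, -0.09, -0.48 and -0.89 in controls 1 to 4. As with Sox7, both mutants were above both controls in each set, and set 2 mutants overlapped with set 1 controls. The list fell in set 2 too: 17 of 18 were lower there, 10 of them at a limma adjusted p under 0.05, with a median of -1.03.

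**Figure D4:**
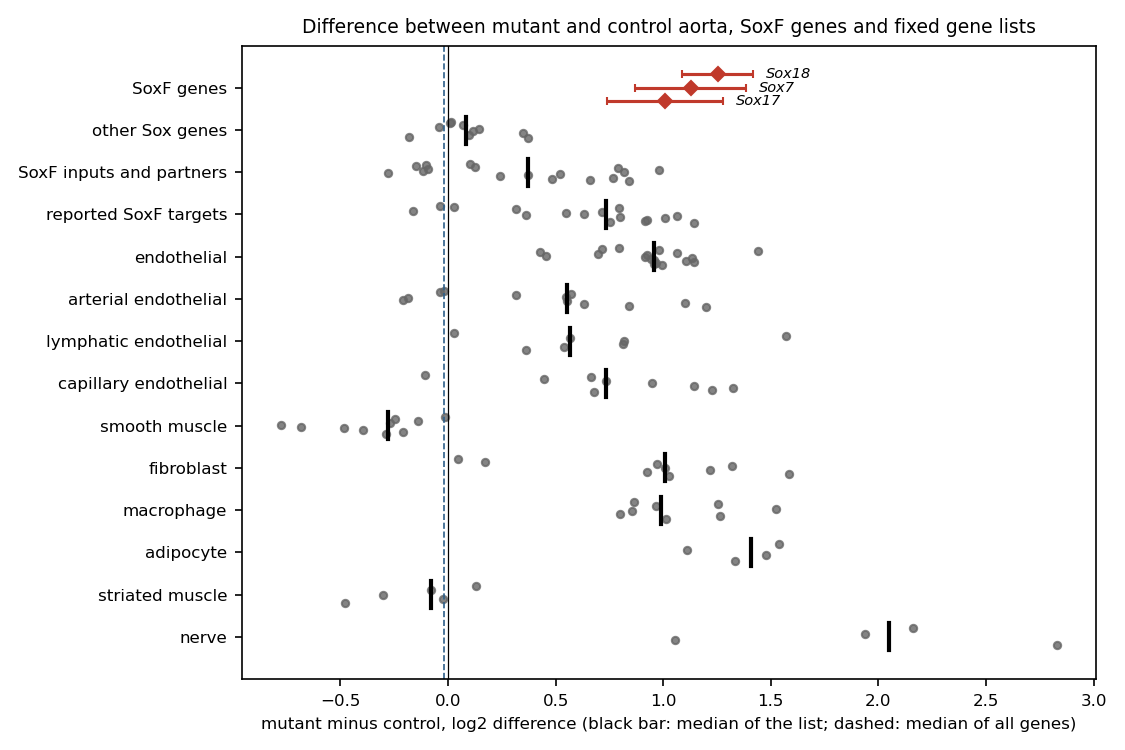
The log2 difference between mutant and control is plotted for the brightest probe set of each SoxF gene (red diamonds with SE) and for every tested gene of the other lists (grey points), with the median of each list as a black bar and that of all genes as a dashed line. Sox18, Sox7 and Sox17, at 1.25, 1.13 and 1.01, lie within the span of the endothelial list, whose median is 0.96. The other Sox genes, several of them dim, have a median of 0.08 and the smooth muscle list one of -0.28.

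Set against the endothelial list in the same array, the SoxF differences between genotypes were smaller. Each gene was centred on its mean over the 8 arrays and the mean of the 18 markers, centred likewise, was taken off. Sox18 was then at 0.17, -0.13, 0.39 and 0.22 in mutants 1 to 4 and at -0.09, -0.17, -0.38 and -0.01 in controls 1 to 4, a difference of 0.33. Mutant 2 lay below controls 1 and 4, and the other mutants lay above all controls. Sox7 (1416564_at) differed by 0.20 and Sox17 (1429177_x_at) by 0.09 on this scale, both with overlapping groups. With 1 array left out the Sox17 value ran from -0.03 (without control 3) to 0.21 (without control 2), so its sign rests on single arrays. The value for Sox18 was 0.50 in set 2 and 0.16 in set 1, and that for Sox7 0.18 in set 2 and 0.23 in set 1. Sox17 (1429177_x_at) differed in sign, at 0.29 in set 2 and -0.12 in set 1. The other Sox17 probe set, 1421657_a_at, differed by 0.01 between genotypes, at 0.21 in set 2 and -0.19 in set 1. Relative to the arterial list, whose mean differed less between genotypes (0.44, against 0.92 for the endothelial list), the differences were 0.81 for Sox18, 0.69 for Sox7 and 0.57 for Sox17, so these values depend on the list taken.

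**Figure D5:**
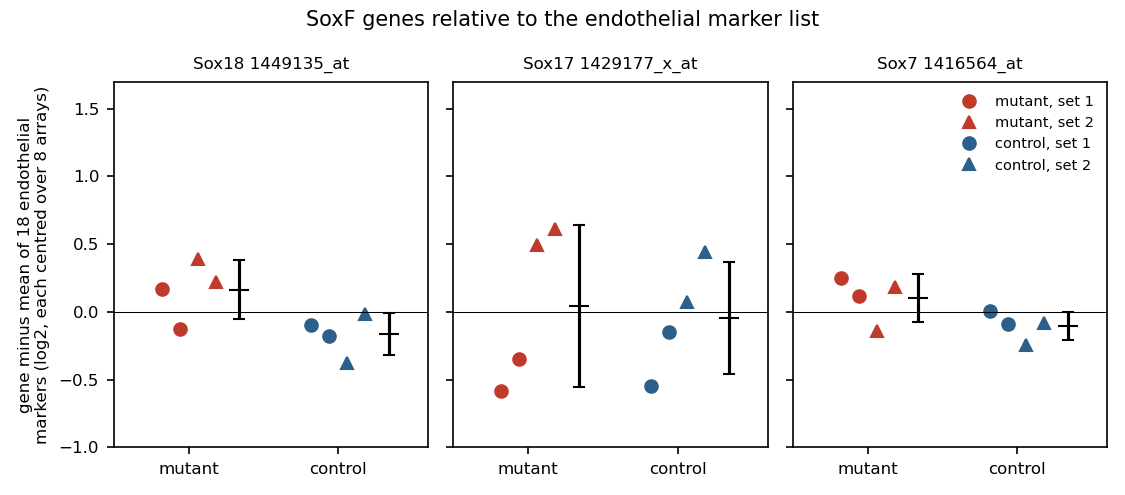
For the brightest probe set of each SoxF gene, the value minus the mean of 18 endothelial markers in the same array (log2, each gene centred over the 8 arrays) is plotted with mutants left and controls right, circles for set 1 and triangles for set 2, and the mean with SD (n = 4) beside each group. Groups overlap in all 3 panels, and the Sox17 values of 1429177_x_at divide by set rather than by genotype. For these, set 2 minus set 1 is 0.81, against 0.05 for the other Sox17 probe set, 1421657_a_at, which is not plotted.

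Markers of endothelial subtypes were less uniform. Of 12 arterial markers 8 were higher, the median was 0.55, and 4 had an unadjusted p under 0.05: Bmx, an endothelial kinase (1.20, SE 0.22), Nrp1, the gap junction gene Gja4 (0.63, SE 0.25) and Sema3g (1.10, SE 0.45). The arterial Notch target Hey2, which smooth muscle also expresses, differed by -0.19 and the ligand Jag1 by -0.02. Without mutant 2 the arterial median was 0.10, and 2 genes had an unadjusted p under 0.05, as they did without mutant 3, control 1 or control 3. The 7 lymphatic markers tested were all higher, with a median of 0.57 (0.36 without mutant 2), although Prox1 differed by only 0.03 (SE 0.06). In set 2 alone the lymphatic median was 0.17 and 6 were higher. Nr2f2 (0.36, SE 0.14) and Lyve1 (0.54, SE 0.21), which some macrophages express as well, had an unadjusted p under 0.05. This count of 2 was 0 without control 1, control 2, control 4 or mutant 4 and with no set term, 1 without mutant 1, 2 or 3, and 3 without control 3. Of 9 capillary markers 8 were higher, with a median of 0.73. That median was 0.31 without mutant 2 and -0.18 in set 2 alone, where 3 were higher. Plvap (0.68, SE 0.25) had an unadjusted p under 0.05. No capillary marker did so without control 1, 2 or 4 or mutant 1 or 2, with no set term or in set 2 alone. There were 2 without control 3 and 4 in set 1 alone.

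Markers of other cell types differed as well, and the part of these cells in the SoxF values was not tested. All 10 smooth muscle markers were lower in mutants, with a median of -0.28, and all 9 fibroblast markers (median 1.01) and all 8 macrophage markers (median 0.99) were higher. SRF acts on muscle genes and the mutants lack 1 allele of Tagln, which is in the list, so lower smooth muscle markers need not mean fewer cells. The array means of the fibroblast list ran from 0.33 to 0.55 in mutants and from -0.84 to 0.29 in controls, those of the macrophage list from 0.14 to 1.07 in mutants and from -0.99 to 0.02 in controls, and those of the smooth muscle list from -0.24 to -0.06 in mutants and from 0.12 to 0.28 in controls. These 3 lists did not overlap between the genotypes, whereas the endothelial list overlapped across sets but not within a set. How often the means of other lists separate so was not computed. At an unadjusted p under 0.05 there were 7 fibroblast, 7 macrophage and 6 smooth muscle markers. In set 2 alone these counts were 0, 1 and 6, and in set 1 alone they were 7, 8 and 1. Adipocyte markers had a median of 1.41 (0.62 without mutant 2, and -0.47 in set 2 alone) and nerve markers one of 2.05 (0.18 without mutant 2). Mutant 2 was at 2.71 in the adipocyte list and 5.70 in the nerve list. Striated muscle markers had a median of -0.08. None of these genes passed the adjusted threshold.

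The genes whose values over the 8 arrays were most like those of each SoxF gene were found by Pearson r among 12172 other genes, as a description. Set, genotype and mutant 2 are shared by all such patterns. For Sox7 (1416564_at) they were Msrb2 (r = 0.992), Gimap4 (0.992), Tek (0.985), AW112010 (0.984) and Nfkbie (0.984). For Sox18 they were Ly6e (0.978), Vsir (0.976), Rtp4 (0.975), Oas1a (0.975) and Tek (0.972), of which Ly6e, Rtp4 and Oas1a are known as interferon-induced. For Sox17 (1429177_x_at) they were Podxl (0.979), a surface sialomucin of vessels, Notch4 (0.973), Egflam (0.970), Mndal (0.968) and the ribosomal gene Rplp2 (0.967). With the means of genotype and set removed, none of these genes stayed among the 5 most like its SoxF gene. Those for Sox18 were then Mrm1, Lipe, Ednrb, Proca1 and Gsdmd.

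Among the SoxF genes themselves, Sox7 and Sox18 were the most alike (r = 0.965): Sox18 ranked 29 of 12172 in likeness to Sox7, and Sox7 ranked 14 in likeness to Sox18. With the means of genotype and set removed, r was 0.890 and these ranks were 511 and 931. Sox17 had r = 0.843 with Sox18 and r = 0.784 with Sox7. Of the 18 endothelial markers, 10 were among the 100 genes most like Sox7, 7 among those most like Sox18 and 0 among those most like Sox17. With the means of genotype and set removed, these counts were 0 for Sox7, 2 for Sox18 and 1 for Sox17, and r was 0.870 between Sox17 and Sox18 and 0.810 between Sox7 and Sox17.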

How the data were processed

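Affymetrix mouse arrays were hybridised with biotinylated cRNA from aorta, per the labels' protocols. The authors deposited 1 table of log2 values per probe set with 2 decimals. The scale was read from the values. GCOS, without a version, is named in the submitters' processing notes. How the values were background-corrected, normalized and summarized is stated nowhere in these sources. Values were used as deposited. Groups and sets came from the labels, replicates were numbered in sample order, and no per-sample column was left out.

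The platform annotation gave 1 symbol for 34945 probe sets, several for 932 (not named) and none for 9160. The 40% with the lowest mean were left out. Each gene was read from its brightest probe set unless stated. limma 3.58.1 (R 4.3.3) was fitted over all kept probe sets with genotype and set as terms and a mean-variance trend, two-sided, with Benjamini-Hochberg adjustment and a threshold of 0.05. SE is limma's. The fit was tested on simulated data. The SoxF genes, 13 further lists and all settings were chosen with earlier results of these data known. Named were all SoxF probe sets, Srf, other Sox genes kept, up to 4 genes of smallest p per list and the 5 genes most like each SoxF gene. Other genes given with values were chosen after those were seen. The planned motif search was not run, since no promoter of the SoxF genes was at hand. Figures and the exact test used Python 3.11.15.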

Additional observations from a re-analysis of the deposited data

Results flagged for a closer look

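In each group of 4 arrays, the highest and lowest values of 74 probe sets (148 groups) were compared with the nearest other array, and 15 stood apart by Dixon's criterion. Chance gives about 5% of independent groups. Some of these probe sets, such as those of Podxl and Rplp2, were chosen by their pattern over the same arrays, so no excess is read from the count. In Sox7 probe set 1432495_at, mutant 2 was lowest at 3.12 (next 3.13) and control 1 lowest at 3.09 (next 3.14), steps of a few hundredths at a dim level. Mutant 2 stood apart by this criterion as the highest mutant for 9 genes. Those were Sox10 (5.20, next 3.81), Nr2f2 (10.41, next 9.89), Mmrn1 (6.57, next 5.10), Gpihbp1 (10.33, next 7.59), Mbp (12.88, next 7.28), Th (9.92, next 2.19), Dbh (11.66, next 2.95), Podxl (10.50, next 9.81) and Rplp2 (14.67, next 14.53). Th and Dbh are enzymes of noradrenaline synthesis and Mbp is a myelin gene. Among the other mutants, mutant 1 was highest for Myh11 (14.57, next 14.46) and lowest for Dpt (11.66, next 12.07), and mutant 4 was highest for Cd34 (10.91, next 10.76). Among controls, control 1 was lowest for Rplp2 (14.42, next 14.48).

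Adipoq, an adipocyte gene, differed between mutant and control by -0.54 in set 2 and by 2.77 in set 1, with both mutants on one side of both controls in each set. That difference between the sets was not tested.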

How the results depend on the processing

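The differences of the 4 SoxF probe sets that were higher in mutants kept their direction under every setting run. In these, both mutants lay above both controls in each set. Leaving out 1 array or fitting 1 set could therefore not reverse the direction, and no support is read from it. Leaving out 1 array at a time gave 1.09 to 1.33 for Sox18, 0.75 to 1.16 for Sox17 (1429177_x_at), 0.70 to 1.07 for Sox17 (1421657_a_at) and 0.90 to 1.31 for Sox7 (1416564_at). The other Sox7 probe set gave -0.0025. Relative to arterial in place of endothelial markers, the differences were 0.81 for Sox18 and 0.69 for Sox7. The fall of Sox7 in set 2 was -1.06 with no filter (adjusted p = 0.051), -0.57 in control arrays, -1.55 in mutant arrays and -1.21 to -0.83 with 1 array left out. That of Sox18 was -0.51 in control arrays, -1.10 in mutant arrays and -0.91 to -0.64 with 1 array left out. Sox17 (1421657_a_at) passed between sets with the lowest 60% left out, with array weights and without mutant 2 (limma adjusted p 0.0386, 0.0212 and 0.0456). Between genotypes 0 probe sets passed, 10 with array weights, and 0 to 11 with 1 array left out, the 11 without control 3. At an unadjusted p under 0.05 there were 2581, 1279 without the set term, 1485 in set 2 alone, and 1426 (without control 1) to 2944 (without mutant 1) with 1 array left out. Where calls were lost with fewer arrays, fewer samples were fitted; for the other changes the cause was not tested. Sox7 was not fitted with the lowest 60% left out, which removes its probe sets. No paired analysis was possible because array numbers were given in sample order and the labels pair no mutant with a control. With 8 arrays, their number limits the precision.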
